A study of Mus musculus with 94 samples.

Results

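LINE-1 (L1) transcripts were compared between cortex and hippocampus of the same trisomic (TS) mice. The libraries were taken by their labels: every Ts65Dn mouse with an L1 count column for both tissues was kept, which gave 42 of the 94 libraries of the study, from 21 mice, and 1 further TS mouse with cortex only was left out. Of these mice, 8 were non-treated (TS-nt) and 13 received lamivudine, an inhibitor of reverse transcriptase, at 3 mg/kg in the drinking water (TS-t). All were males, given in the labels as 3 to 4 months old, although the methods of the study state a treatment of 4 months, so that the age at sampling is not settled. They were bred from B6EiC4Sn.BLiA-Ts(1716)65Dn/DnJ females and B6C3F1/OlaHsd hybrid males. Ts65Dn mice are a model of Down syndrome that carries an extra copy of parts of chromosomes MMU16 and MMU17, so that every mouse compared here was trisomic, and the tissue was the variable. Wild-type (WT) littermates with both tissues, 8 WT-nt and 17 WT-t, were used for 1 comparison near the end. Each label names 1 animal, whereas the methods of the study also mention that samples were pooled in threes per condition before RNA was measured, so that a library may stand for more than 1 mouse. Per those methods RNA was extracted from 3 parts of each cortex, so that the tissues also differed in how they were cut, which cannot be told apart from the tissue itself. The tissues could not be checked against marker genes, because gene counts were not used here. In bulk tissue, fewer cells of a type and less RNA per cell cannot be told apart.

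L1s are retrotransposons that move through an RNA copy, which their own reverse transcriptase writes back into DNA. Most copies in the mouse genome are truncated and immobile, and only the youngest mouse subfamilies, L1Md_T, L1Md_A and L1Md_Gf, still hold copies able to move. The Lx subfamilies are older rodent L1s, and the L1M subfamilies (L1MA to L1ME and the numbered ones) are relics shared among mammals. HAL1 elements are L1 relatives that lack the part with the reverse transcriptase. In the brain, L1 RNA can come from a copy's own promoter or from a host gene that runs through it. A subfamily is here the name before the copy number: Lx_dup1329 is 1 copy of Lx.

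Sequences are shown for L1ME3A_dup48 and Lx7_dup11750, both higher in cortex, whose position was known and which lie in an exon on the same strand. They were read from the GENCODE transcripts of GRCm38, the build of the counts. L1ME3A_dup48 lies in an exon of the processed transcript 9130024F11Rik (chr1:57041644-57041943, strand + for the 300 of its 408 bases printed). Lx7_dup11750 overlaps an exon of the antisense gene Gm42902 (chr5:107392731-107393003, strand -, the 273 exonic of its 2282 bases). No base is in capitals, because no stretch was singled out.
L1ME3A_dup48: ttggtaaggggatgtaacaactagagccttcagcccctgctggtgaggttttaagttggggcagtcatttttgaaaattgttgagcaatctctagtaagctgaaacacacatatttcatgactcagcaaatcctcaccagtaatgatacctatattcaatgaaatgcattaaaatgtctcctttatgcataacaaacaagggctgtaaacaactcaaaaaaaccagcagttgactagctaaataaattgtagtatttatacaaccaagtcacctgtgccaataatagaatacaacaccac
Lx7_dup11750: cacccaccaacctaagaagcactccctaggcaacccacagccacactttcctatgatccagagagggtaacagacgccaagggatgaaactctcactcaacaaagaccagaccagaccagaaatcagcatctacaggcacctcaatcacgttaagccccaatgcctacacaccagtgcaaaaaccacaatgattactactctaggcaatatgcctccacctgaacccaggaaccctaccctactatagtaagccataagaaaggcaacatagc

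The sum of L1 counts per library was 252114, 313342 and 763030 (lowest, median and highest) in cortex and 186434, 260220 and 403378 in hippocampus. Of the 430083 annotated elements, 307219 had a count in these libraries, and 4540 passed the filter on low counts (minimum 10) and were tested. Levels are CPM, counts scaled to the same total in every library, with the total of the counts on the tested elements (for subfamilies, on the tested subfamilies) multiplied by the library's TMM factor. They were not divided by length, so that they are compared between tissues and not between elements. The tested elements held 48.5% of L1 counts in cortex and 55.9% in hippocampus, and between 32.2% and 68.9% in single libraries. Element CPM and shares of all L1 counts are therefore on different scales, and the other counts lie outside the element results. The first principal component (12.7% of the variance) placed the cortex library on the same side of the hippocampus library in 21 of 21 mice. The cortex library of TS-t mouse 2 stood apart on the first component within its tissue. The cortex libraries of TS-t mice 8 and 14 were scaled by the lowest factors (0.637 and 0.675), and that of TS-nt mouse 27 had the highest total. The low factors raise every CPM value of mice 8 and 14 in cortex. Without these 4 mice 811 of 4443 elements and 72 subfamilies were called, beside the counts below, and values that moved by over 1.5 times are given without them as well.

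Many single L1s differed between the tissues. Of the 4540 elements, 963 (21.2%) passed edgeR's paired quasi-likelihood test at an adjusted p-value below 0.1 and are referred to as called: 523 were higher in cortex (11.5%) and 440 in hippocampus (9.69%). The change was over 2-fold for 358 of those higher in cortex and 161 of those higher in hippocampus, and over 4-fold for 99 and 53. In all 21 mice, 27 elements were higher in cortex and 13 in hippocampus (0.881% of the elements tested together). The balance of the directions depended on the scaling. The median log2 fold change of all elements (cortex over hippocampus) was 0.089 with TMM factors, 0.18 with DESeq2 size factors and -0.076 with library totals, and 659 and 342 elements were then called higher in cortex and in hippocampus with size factors, and 363 and 689 with totals. Small differences are therefore to be read relative to these medians, whereas the 31 called elements that were named by a rule on p, fold, level or the study's list kept their direction under every alternative run.

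**Figure D1:**
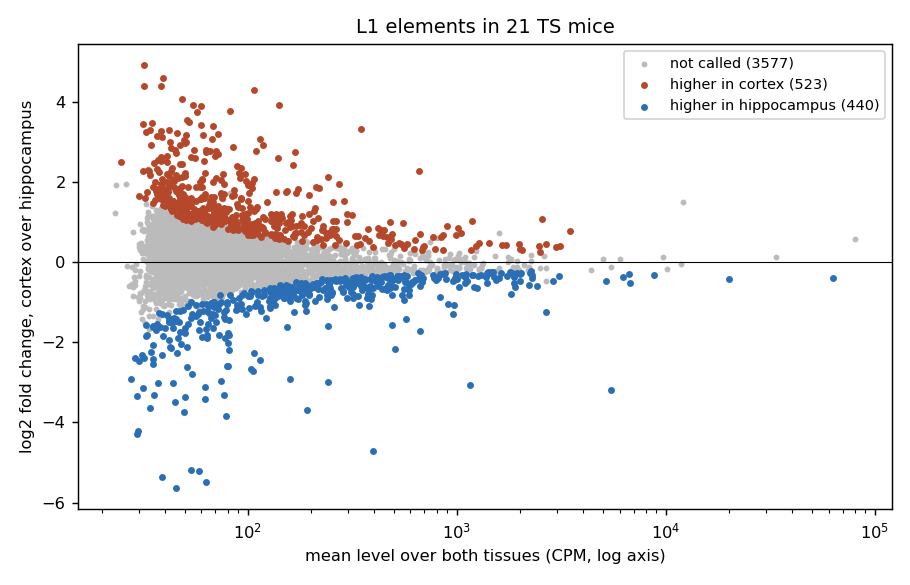
Log2 fold change (cortex over hippocampus, vertical axis) of the 4540 tested L1 elements against their mean level in CPM (horizontal log axis) in 21 TS mice, with called elements in red (higher in cortex) and blue (higher in hippocampus). Called elements lie on both sides of 0, 523 above and 440 below, and the largest fold changes are of elements with low levels.

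Among the elements higher in cortex, the smallest p-values were of copies of rodent subfamilies. Lx_dup1329, a rodent Lx copy, was at 355, 845 and 3477 CPM in cortex (lowest, median and highest of 21 mice) and 54.4, 185 and 789.8 in hippocampus. It was higher in cortex in 21 of 21 mice, although the ranges overlapped (log2 fold change 2.27 ± 0.16 (SE), adjusted p = 3.03e-17). L1Md_T_dup6533, a copy of a young subfamily, was at 112, 262 and 405 CPM in cortex and 0, 12.7 and 107 in hippocampus, where 7 libraries had no count (log2 fold change 3.91 ± 0.37 (SE), adjusted p = 2.33e-11). It was the only element tested (0.022%) whose cortex values all lay above all hippocampus values, and no element showed the reverse. This separation depended on the TMM factors. The cortex library of mouse 14 had 13 counts of 168195 on tested elements (factor 0.675). The hippocampus library of mouse 21 had 17 of 155696 (factor 1.02), so that without the factors the ranges overlap. L1Md_T_dup2410, of the same subfamily, was at 0, 170.3 and 443 CPM in cortex and 0, 0 and 227 in hippocampus (log2 fold change 4.29 ± 0.43 (SE), adjusted p = 5.45e-12). It had no count in 12 hippocampus and 2 cortex libraries. Of its 61 hippocampus counts, 36 were in the library of TS-t mouse 21. L1_Mus4_dup5164, a mouse-lineage copy, was at 110.3, 253 and 447 CPM in cortex and 7.29, 40.4 and 164 in hippocampus, and was higher in cortex in 21 mice (log2 fold change 2.42 ± 0.24 (SE), adjusted p = 2.65e-13).

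The other 4 of the 8 elements with the smallest p-values in this direction were called with smaller folds. Lx7_dup34285, an old rodent copy with a high level, was at 1485, 3481 and 5253 CPM in cortex and 369.6, 1632 and 2791 in hippocampus (log2 fold change 1.06 ± 0.11 (SE), adjusted p = 6.12e-11). Lx7_dup11750, the copy in the antisense gene Gm42902, was at 1085, 1568 and 1996 CPM in cortex and 412, 722 and 1619 in hippocampus (log2 fold change 1.02 ± 0.11 (SE), adjusted p = 5.45e-12). Both were higher in cortex in 20 of 21 mice. The exception was TS-t mouse 21 for Lx7_dup11750 (1568 CPM in cortex and 1619 in hippocampus) and TS-t mouse 8 for Lx7_dup34285 (1485 and 1769). L1ME3A_dup48, the copy in 9130024F11Rik and the only mammalian relic of the 8, was at 145, 402 and 535 CPM in cortex and 12.1, 101 and 277 in hippocampus, and was higher in cortex in every mouse (log2 fold change 2.12 ± 0.23 (SE), adjusted p = 2.1e-10). L1Md_F2_dup15715, a mouse copy, was at 261, 368 and 651 CPM in cortex and 27.5, 151 and 292 in hippocampus (log2 fold change 1.51 ± 0.18 (SE), adjusted p = 1.05e-10). The largest folds in this direction, besides L1Md_T_dup2410, were those of Lx9_dup34674, L1MB7_dup2198, L1_Mur2_dup1396 and Lx9_dup4345, with log2 fold changes of 4.91, 4.60, 4.40 and 4.39. They had between 7 and 14 counts over all hippocampus libraries, and the SE of these folds was between 0.67 and 0.77.

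Among the elements higher in hippocampus, 6 of the 8 with the smallest p-values were mammalian relics of L1M subfamilies, whereas over all 440 such elements 200 were of mammalian classes. L1ME4a_dup616 was at 104, 171 and 316 CPM in cortex and 188, 838 and 1367 in hippocampus, and was higher in hippocampus in every mouse (log2 fold change -2.17 ± 0.14 (SE), adjusted p = 3.92e-22). The other 2 were rodent copies. L1_Mus4_dup10507 was at 0, 57.3 and 131 CPM in cortex and 101, 419 and 831 in hippocampus (log2 fold change -2.99 ± 0.23 (SE), adjusted p = 9.12e-16), a direction opposite to that of L1_Mus4_dup5164 of the same subfamily. Lx10_dup8120 was at 697, 1329.8 and 4172 CPM in cortex and 850.4, 3331 and 6836 in hippocampus (log2 fold change -1.26 ± 0.11 (SE), adjusted p = 3.65e-15). Only TS-t mouse 21 went the other way (1103 CPM in cortex and 850 in hippocampus). L1MC4a_dup1140, a relic, was at 181, 642 and 944 CPM in cortex and 485, 1165 and 2463 in hippocampus (log2 fold change -1.08 ± 0.11 (SE), adjusted p = 5.45e-12). Only TS-t mouse 46 went the other way (604 CPM in cortex and 485 in hippocampus), and its L1ME4a_dup616 levels were nearly equal (182 and 188). Without mouse 21, 965 of 4535 elements were called, and without mouse 46, 967 of 4370.

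Some relics had almost no counts in cortex. L1M4_dup5561, L1MA4_dup3516, L1MC5_dup3262 and L1MEf_dup1804 had no count in 17 or 18 of 21 cortex libraries and had a count in at least 20 of 21 hippocampus libraries. L1M4_dup5561 had 10 counts in all cortex libraries and 396 in hippocampus (log2 fold change -5.48 ± 0.54 (SE), adjusted p = 1.62e-13). L1MC5_dup3262 had 5 and 287 counts (log2 fold change -5.64 ± 0.61 (SE), adjusted p = 6.97e-12). L1_Mus4_dup5488, the remaining element among the 5 largest folds in this direction, had 8 and 242 counts (log2 fold change -5.36 ± 0.68 (SE), adjusted p = 1.9e-09). Over all elements of the table, 34 had counts in at least 11 cortex libraries and none in hippocampus, and 12 the reverse. The cortex libraries held more counts in all (7337926 against 5741977), which favours the first number. The most widespread of them, chosen after their values were seen, was in cortex L1Md_F2_dup52229, with 141 counts in 18 cortex libraries. With 3 counts put in for all hippocampus libraries together as a floor, its share of pooled L1 counts was 36.8-fold higher in cortex. This ratio is a description and not a bound, because the element was picked for having no count there, and it leaves out the spread between mice. In hippocampus the most widespread was Lx5_dup10049, with 68 counts in 16 libraries, 29-fold higher there by the same rule and with the same limits.

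**Figure D2:**
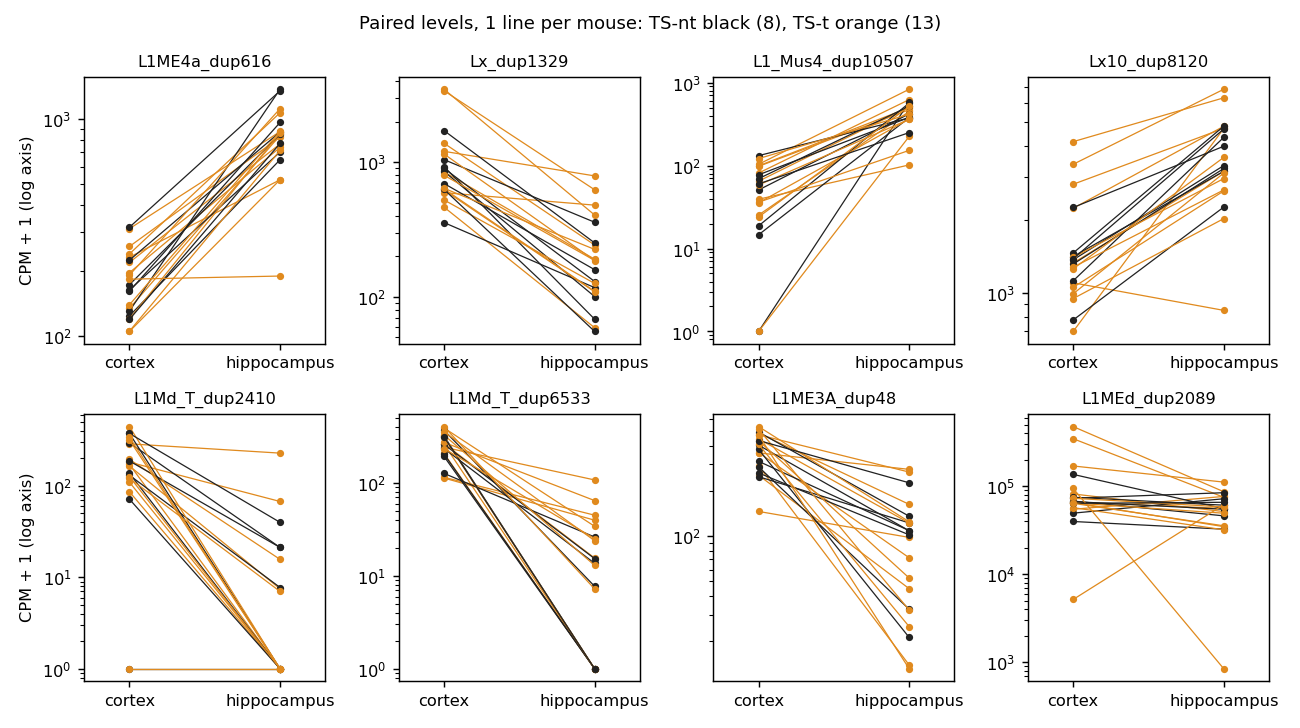
Levels of 8 L1 elements in cortex and hippocampus (CPM + 1, log axis), with 1 line per mouse, TS-nt in black (8) and TS-t in orange (13). Lines of L1ME4a_dup616 and L1_Mus4_dup10507 rise to hippocampus in every mouse, those of Lx_dup1329, L1Md_T_dup6533 and L1ME3A_dup48 fall in every mouse, and the abundant L1MEd_dup2089, which was not called, is scattered in cortex.

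Of the 8 most abundant elements, 6 were not called. L1MEd_dup2089, a mammalian relic and the most abundant element in 17 cortex and 6 hippocampus libraries, was at 5144, 66786 and 476633 CPM in cortex and 836, 55867 and 111323 in hippocampus (log2 fold change 0.57 ± 0.36 (SE), adjusted p = 0.334). Its cortex level in mice 8 and 14 was 476633 and 346909 CPM, above all other libraries, and without the 4 mice named above its log2 fold change was 0.38 (adjusted p = 0.642). L1Md_T_dup9904, a young copy, was at 24.7, 2013 and 203370 CPM in cortex and 31.9, 2005 and 8639 in hippocampus (log2 fold change 1.49 ± 0.97 (SE), adjusted p = 0.353). The ratio of its highest to its lowest level in cortex was the largest of these 8 elements, and without the 4 mice its log2 fold change was 0.48 (adjusted p = 0.79). The only 2 of these 8 that were called were mammalian relics, L1ME3Cz_dup549 and L1MEi_dup274. L1ME3Cz_dup549 was at 27967, 53343 and 91654 CPM in cortex and 35728, 75988 and 113347 in hippocampus, and was higher in hippocampus in 17 of 21 mice (log2 fold change -0.40 ± 0.092 (SE), adjusted p = 0.0013). L1MEi_dup274 was higher there in 18 mice (log2 fold change -0.43 ± 0.10 (SE), adjusted p = 0.000778). L1MC4_dup2661, a mammalian relic, was at 6204, 12584 and 19289 CPM in cortex and 5953, 10869 and 20094 in hippocampus (log2 fold change -0.040 ± 0.092 (SE), adjusted p = 0.829). The log2 fold changes of Lx7_dup29483, Lx3B_dup3459 and Lx_dup18222 were 0.12, -0.18 and 0.13, and none was called. Without the 4 mice they were 0.18, -0.058 and 0.21. With DESeq2 size factors, and also without mouse 2, Lx7_dup29483 and Lx_dup18222 were called higher in cortex, at 0.16 and 0.17 on the log2 scale without that mouse (adjusted p = 0.063 and 0.0936), whereas with library totals both were at or below -0.042.

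The study lists 60 L1s with a position, drawn from these samples for differences between genotypes and treatments. Of the 33 that were tested here, 12 were called, 7 higher in cortex and 5 in hippocampus, against 21.2% of all elements. The 10 with the smallest p-values include L1ME3A_dup48 and Lx7_dup11750. Lx3C_dup1451, a rodent copy outside annotated genes (chr4:78267017-78268379, nearest gene Gm11260), was at 32.8, 192 and 461 CPM in cortex and 0, 8.31 and 162 in hippocampus, and was higher in cortex in every mouse (log2 fold change 3.06 ± 0.37 (SE), adjusted p = 1.05e-09). Lx2_dup14390, in an intron of A830082K12Rik on the opposite strand (chr13:78238594-78243878), and L1_Mm_dup4871, outside genes near 1700007E05Rik (chr16:31386704-31387928), were higher in cortex as well, with log2 fold changes of 0.96 and 0.39. The other 5 of the 10 were higher in hippocampus. L1MC5_dup3240, outside genes, had the largest fold of them (log2 fold change -1.51 ± 0.40 (SE), adjusted p = 0.0038). L1Md_F2_dup47820, outside genes near Gm40418 (chr12:50015570-50017476), had a log2 fold change of -0.88, and Lx4B_dup4733, near Kctd12 (chr14:102945660-102946066), of -0.72. Without mice 2, 8, 14 and 27 these 2 were no longer called (adjusted p = 0.119 and 0.107). L1ME1_dup2108, in an exon of Ric3 on the opposite strand (chr7:109047222-109047771), and L1MA4_dup880, in an exon of Emc7 on the same strand (chr2:112471514-112471892), had log2 fold changes of -0.51 and -0.29. The call of L1MA4_dup880 was lost without these 4 mice and with DESeq2 size factors (adjusted p = 0.224 and 0.159). Whether reads came from these L1s or from the surrounding transcript was not tested.

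Counts summed over the copies of a subfamily differed by less than those of single copies, but a larger part of them was called. Sums hold more counts than single copies, so that the parts called do not compare how often subfamilies and copies differ. Of 132 subfamilies, 78 (59.1%) were called, 34 higher in cortex (25.8%) and 44 in hippocampus (33.3%). The 5 with the smallest p-values among those higher in hippocampus were mammalian relics: L1ME4a, L1MA6, L1MC4a, L1MB1 and L1ME1. L1ME4a was at 10739.6 ± 1703 CPM in cortex and 17487 ± 3581 in hippocampus (SD, n = 21) and was higher in hippocampus in every mouse (log2 fold change -0.69 ± 0.055 (SE), adjusted p = 1.79e-09). The log2 fold changes of the other 4 were -0.30, -0.26, -0.28 and -0.26. The 5 with the smallest p-values among those higher in cortex were rodent subfamilies: Lx2, Lx, L1Md_A, L1_Mur2 and L1_Mur1. Lx2 was at 10657 ± 1773 CPM in cortex and 8863 ± 865 in hippocampus (SD, n = 21) and was higher in cortex in every mouse (log2 fold change 0.26 ± 0.035 (SE), adjusted p = 1.91e-06). The young subfamily L1Md_A was at 16129 ± 1743 CPM in cortex and 14442 ± 1133 in hippocampus (SD, n = 21), and was higher in cortex in 19 mice (log2 fold change 0.16 ± 0.025 (SE), adjusted p = 1.98e-05). Lx, L1_Mur2 and L1_Mur1 had log2 fold changes of 0.14, 0.21 and 0.29. None of the subfamilies named here changed direction with DESeq2 size factors or library totals.

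Of the other young subfamilies, L1Md_T was at 35211 ± 29397 CPM in cortex and 23547 ± 2038 in hippocampus (SD, n = 21) and was called (log2 fold change 0.33 ± 0.14 (SE), adjusted p = 0.0631). Without mice 2, 8, 14 and 27 its log2 fold change was 0.10 (adjusted p = 0.0014). L1Md_Gf (log2 fold change 0.11 ± 0.053 (SE), adjusted p = 0.0734), L1Md_F (log2 fold change 0.12 ± 0.037 (SE), adjusted p = 0.00835) and L1Md_F2 (log2 fold change 0.10 ± 0.020 (SE), adjusted p = 0.000194) were called as well, all higher in cortex. L1Md_F3 was not called (log2 fold change 0.012 ± 0.034 (SE), adjusted p = 0.783). The call of L1Md_Gf was lost without mouse 26 or mouse 37 (adjusted p = 0.114 and 0.142). Without the most abundant copy of each subfamily, 62 of 129 subfamilies were called, 31 higher in cortex and 31 in hippocampus. Taking out the called copies, which were picked for the same difference and so must make it smaller, is given as a description only: 34 of 131 subfamilies were called, and L1MA6, L1MC4a, L1MB1 and L1ME1 were at 0.021, 0.0058, 0.074 and -0.051 on the log2 scale, none of them called. L1Md_T was then at 0.28 (adjusted p = 0.228). L1ME4a stayed called, at -0.15. The largest difference in CPM within L1ME4a was that of L1ME4a_dup1041, chosen here after its values were seen, which held 5.10% of the subfamily's CPM in cortex and 32.4% in hippocampus (log2 fold change -3.20 ± 0.20 (SE), adjusted p = 8.91e-11).

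By class, younger L1s took a larger share of L1 counts in cortex and mammalian relics in hippocampus. The subfamilies were put in 16 classes by name, and the share of each class was compared within mice by a two-sided permutation test of the paired log2 ratios (100000 sign changes), with p-values adjusted over the classes and the 3 subfamilies left over. The shares sum to the whole, so that a rise of one class lowers the others. All 7 classes from L1Md_T to Lx and Lx2 had a larger share in cortex. L1Md_A was at 1.61% ± 0.174 of L1 counts in cortex and 1.45% ± 0.123 in hippocampus (SD, n = 21), with the larger share in cortex in 18 of 21 mice (mean log2 ratio 0.15 ± 0.12 (SD), adjusted p = 0.000127). Lx and Lx2 together were at 5.19% ± 0.470 of L1 counts in cortex and 4.61% ± 0.291 in hippocampus (SD, n = 21), with the larger share in cortex in 19 mice (mean log2 ratio 0.17 ± 0.13 (SD), adjusted p = 0.000113). The mean log2 ratios of L1Md_Gf, of L1Md_F with L1Md_F2 and L1Md_F3, of L1_Mus with L1_Mm, and of L1_Mur with L1VL and L1_Rod were 0.11, 0.081, 0.087 and 0.11. The largest mean ratio was that of L1Md_T (3.32% ± 2.07 of L1 counts in cortex and 2.36% ± 0.191 in hippocampus (SD, n = 21), mean log2 ratio 0.34 ± 0.57 (SD), adjusted p = 0.000113). Within TS-nt and TS-t mice all 7 classes kept this direction, but not all were called. In TS-t mice L1Md_Gf, L1_Mus with L1_Mm, and L1_Mur with L1VL and L1_Rod were at 0.0998, 0.074 and 0.077 (adjusted p = 0.235, 0.137 and 0.226). In TS-nt mice L1Md_Gf was at 0.12 (adjusted p = 0.21).

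The size of the L1Md_T difference rested on 3 mice, although its direction did not. TS-t mice 8, 14 and 2 had 10.7%, 7.23% and 5.47% of L1 counts on L1Md_T in cortex and 2.42%, 2.40% and 2.43% in hippocampus. The single copy L1Md_T_dup9904 had 20275, 13721 and 16865 counts in these cortex libraries. The animal labels of these 3 mice begin with 19 or 18, as do those of mice 15 and 19, which had 2.48% and 2.98% on L1Md_T in cortex. The labels of the other 16 mice begin with 20, and what this prefix stands for was not given in the sources used here. Without mice 2, 8, 14 and 27 the mean log2 ratio was 0.11 (adjusted p = 0.00068), and without the most abundant copy of each subfamily it was 0.087 in all 21 mice (adjusted p = 0.00068).

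The older rodent classes, Lx3 to Lx10, lay between. Their mean log2 ratios were between 0.00054 and 0.038, with adjusted p-values between 0.282 and 0.985. Without mouse 2 alone, the ratio of Lx7 was 0.053 (adjusted p = 0.0831). In TS-nt mice it was 0.11, with the larger share in cortex in 8 of 8 mice (adjusted p = 0.019), and in TS-t mice -0.0064 (adjusted p = 0.939). Without the most abundant copy of each subfamily the Lx7 ratio was 0.040 over the 21 mice (adjusted p = 4.25e-05). Tested as a subfamily by edgeR, Lx7 was called higher in cortex (log2 fold change 0.045). Without mice 2, 8, 14 and 27, 3 of these 4 classes had a larger share in cortex, with log2 ratios of 0.056 for Lx3 and Lx4, 0.088 for Lx7 and 0.046 for Lx8, Lx9 and Lx10 (adjusted p = 0.0194, 0.000729 and 0.0164). All 5 mammalian classes had a larger share in hippocampus. HAL1 was counted as one of them, although 1453 of its 4622 elements are of MusHAL1, a subfamily named for the mouse. L1MC and L1MD were at 8.02% ± 0.955 of L1 counts in cortex and 8.77% ± 0.527 in hippocampus (SD, n = 21), with the larger share in hippocampus in 20 of 21 mice (mean log2 ratio -0.14 ± 0.14 (SD), adjusted p = 0.000113). L1MA and L1MB were at 8.41% ± 0.946 of L1 counts in cortex and 9.08% ± 0.414 in hippocampus (SD, n = 21) (mean log2 ratio -0.12 ± 0.15 (SD), adjusted p = 0.000136). L1ME, the class with most counts, was at 15.6% ± 4.11 of L1 counts in cortex and 17.1% ± 2.37 in hippocampus (SD, n = 21), with the larger share in hippocampus in 17 mice (mean log2 ratio -0.15 ± 0.26 (SD), adjusted p = 0.0266). The classes HAL1 and L1M1 to L1M8 had mean log2 ratios of -0.17 and -0.068. Within TS-nt and TS-t mice all 5 mammalian classes kept this direction, but not all were called. In TS-nt mice HAL1 and L1M1 to L1M8 were at -0.043 and -0.0097 (adjusted p = 0.681 and 0.727). In TS-t mice L1ME was at -0.11 (adjusted p = 0.316). Without mice 2, 8, 14 and 27 the ratios of L1MC and L1MD, L1MA and L1MB, and L1M1 to L1M8 were -0.091, -0.076 and -0.032, that of L1Md_Gf was 0.16, and all 4 were still called. The HAL1 ratio was 0.0089 without the most abundant copy of each subfamily, and HAL1_dup2781, chosen after its values were seen, held 52% of the CPM of the HAL1 subfamily in cortex and 59.5% in hippocampus.

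**Figure D3:**
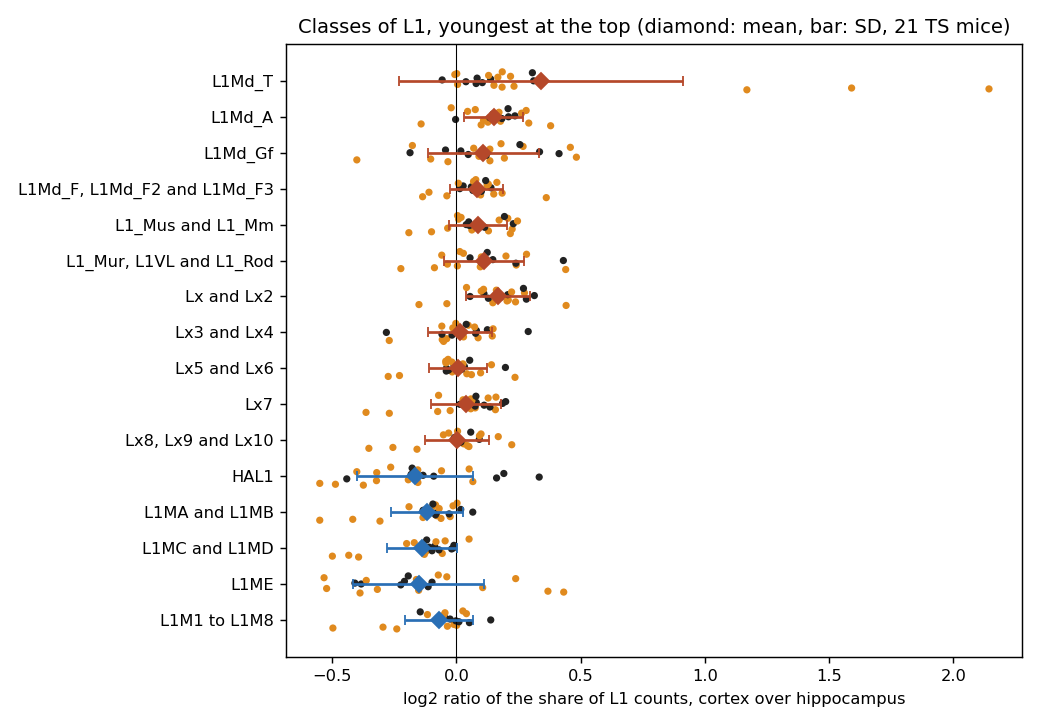
Log2 ratio of the share of L1 counts, cortex over hippocampus (horizontal axis), for 16 classes of L1 from the youngest (top) to the mammalian relics (bottom), with 1 point per mouse (TS-nt black, TS-t orange), the mean as a diamond and the SD as a bar. The mean is 0.34 for L1Md_T, where 3 TS-t mice lie above 1. From L1Md_A to Lx and Lx2 the means lie between 0.081 and 0.17 without a steady fall, the highest being that of Lx and Lx2. They are near 0 for Lx3 to Lx10 and below 0 for the mammalian classes.

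Single elements were split in the same way. In the 7 younger classes 385 of 1901 elements were called, 270 higher in cortex and 115 in hippocampus. Among mammalian relics 291 of 1314 were called, 91 and 200. In Lx3 to Lx10 the numbers were 162 and 125. Over all elements, 11.5% were called higher in cortex and 9.69% in hippocampus. With library totals as the scale, the split of the younger classes was 192 and 188 and that of the mammalian classes 58 and 315. With DESeq2 size factors it was 345 and 91, and 114 and 154. Every class held copies called in each direction except L1Md_Gf, with 1 of 8 called.

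More L1 counts and more distinct elements were found in cortex. The L1 total was higher in cortex in 17 of 21 mice, by 75998 ± 99126 counts (SD of the paired differences, permutation p = 0.0001). Without mice 2, 8, 14 and 27 the difference was 50830.2 counts (permutation p = 0.0013). The total reads of the libraries were not used here, so that this difference and a difference in sequencing depth cannot be told apart. At an equal depth of 178454 L1 counts, 41979 ± 10560.3 elements would have a count in cortex and 33889 ± 9413 in hippocampus (SD, n = 21), with the larger number in cortex in 15 mice (permutation p = 0.00211). This held in 8 of 8 TS-nt mice (exact permutation p = 0.00781) and in 7 of 13 TS-t mice (permutation p = 0.0722), and the differences of the strata did not themselves differ beyond the spread between mice (permutation p = 0.692). The 10 most abundant elements held 14% ± 6.34 of L1 counts in cortex and 14.2% ± 2.41 in hippocampus, a difference within the spread between mice (permutation p = 0.875). Their share was larger in hippocampus in 15 of 21 mice, whereas the cortex libraries of TS-t mice 8 and 14 had 34.2% and 29.3%. In TS-nt mice the mean difference was -1.78 percentage points, with the larger share in hippocampus in 7 of 8 mice (exact permutation p = 0.0156). In TS-t mice it was 0.81 points (permutation p = 0.646).

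**Figure D4:**
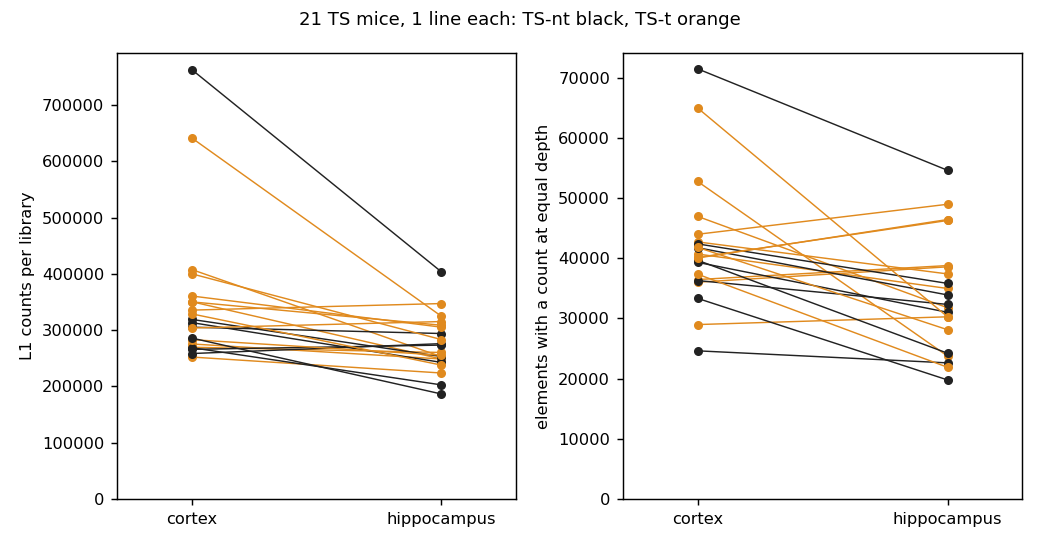
L1 counts per library (left) and elements with a count at equal depth (right) in cortex and hippocampus, with 1 line per TS mouse (TS-nt black, TS-t orange). The L1 total falls from cortex to hippocampus in 17 of 21 mice, and the highest values at the top of both panels belong to TS-nt mouse 27.

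No effect of lamivudine on the difference between the tissues passed the test. In the 8 TS-nt mice 327 of 4540 elements were called (7.2%) and in the 13 TS-t mice 580 (12.8%). Both strata shared 232 called elements, 70.9% of the TS-nt list and 40% of the TS-t list, and all of these had the same direction. Over all tested elements, called or not, 71.4% had the same direction in both strata. The interaction of tissue and treatment was called for 0 elements by edgeR (97 had an unadjusted p below 0.05) and for 0 by DESeq2's Wald test (210 below 0.05). L1ME4a_dup616 had log2 fold changes of -2.43 ± 0.23 (SE) in TS-nt and -2.02 ± 0.18 in TS-t mice, and Lx_dup1329 of 2.59 ± 0.25 and 2.09 ± 0.19. Of the subfamilies, 38 were called in TS-nt mice (28.8%) and 69 in TS-t mice (52.3%), and the interaction was called for 0 of 132 by edgeR (6 had an unadjusted p below 0.05). The class with the smallest p-value of the interaction was Lx7, whose log2 ratio differed by -0.12 between TS-t and TS-nt mice (permutation p = 0.0372, adjusted p = 0.318). All TS-nt mice had labels beginning with 20, and 8 of the 13 TS-t mice did. Within the 16 mice with such labels, 736 elements were called, and the share of L1M1 to L1M8 was no longer called (mean log2 ratio -0.023, adjusted p = 0.224).

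**Figure D5:**
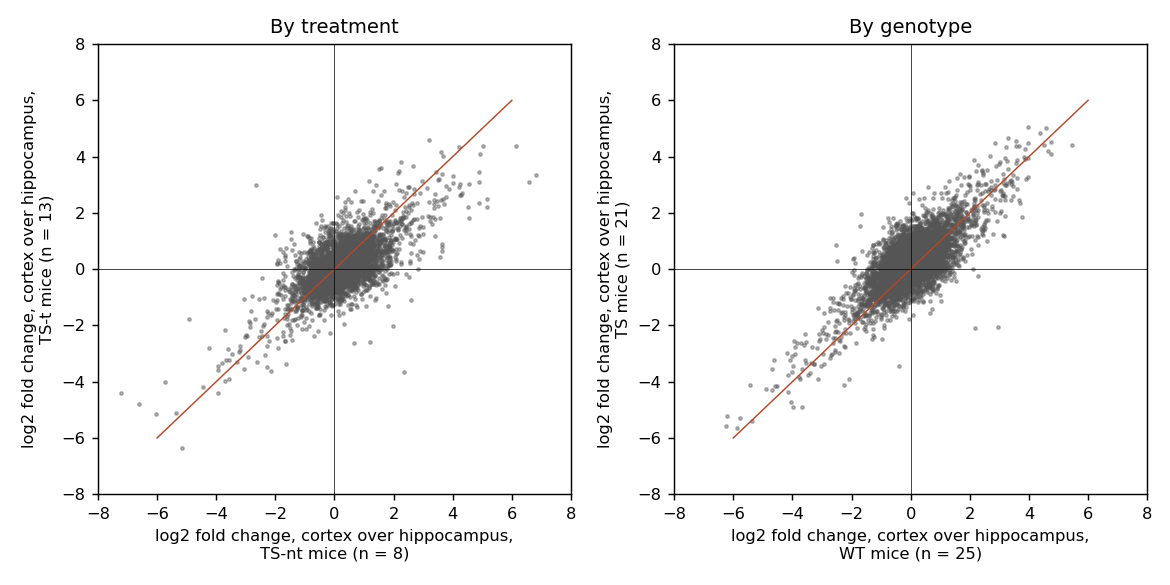
Log2 fold change between cortex and hippocampus of each tested element in TS-t against TS-nt mice (left) and in TS against WT mice (right), with the line of equal values in red. The points scatter around the line in both panels, with wider scatter for TS-nt, the stratum of 8 mice. The Pearson correlation is 0.68 on the left and 0.77 on the right.

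The same paired comparison was made in WT mice to ask whether the differences were particular to trisomic mice. In a model of all 46 mice with both tissues and 7388 elements, 826 elements were called in the 21 TS mice (11.2%) and 1176 in the 25 WT mice (15.9%). Of these, 575 were called in both genotypes, 69.6% of the TS list and 48.9% of the WT list, all in the same direction. The interaction of tissue and genotype was called for 0 elements by edgeR (156 had an unadjusted p below 0.05) and for 3 by DESeq2 (Lx5c_dup9589, Lx7_dup2969 and L1M5_dup10517, named because they were so few). In WT mice the log2 fold change of L1ME4a_dup616 was -2.53 ± 0.19 (SE, against -2.19 ± 0.21 in TS mice in the same model), that of Lx_dup1329 2.40 ± 0.18 (TS 2.28 ± 0.20) and that of L1Md_T_dup6533 3.83 ± 0.40 (TS 4.00 ± 0.42). In the same model 83 of 133 subfamilies were called in WT mice (62.4%), and the interaction was called for 0 of them by edgeR (4 had an unadjusted p below 0.05). For class shares the smallest adjusted p of the interaction was 0.94 (permutation test). Some WT cortex values lay far from the median of the 25 mice. The lowest number of elements at equal depth was 2811 (median 42517), the highest L1 total 1165190 (median 326153) and the highest share of L1Md_T 18.6% (median 2.55%). The comparison of genotypes was not repeated without these WT libraries. A p-value that misses the threshold does not show that the genotypes are alike.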

How the data were processed

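L1 RNA was measured by RNA sequencing of cortex and hippocampus. The deposited table holds raw read counts per L1 element, which the authors made by trimming with Trimmomatic 0.38, aligning to GRCm38/mm10 with HISAT2 2.1.0 with up to 5 alignments per read, and assigning reads to elements with Telescope. Telescope divides reads that match several copies by a model, so that counts of near-identical young copies are uncertain. The strand used in counting is not given in the sources used here, so that reads of an L1 and of an overlapping gene on either strand cannot be told apart. Tables of gene counts were not used here, and the sequence of 1 further element is not reported here.

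Libraries were paired by the animal number in their labels. Elements that passed edgeR's filterByExpr were tested with edgeR 4.0.16 (limma 3.58.1, R 4.3.3) in a quasi-likelihood model with robust dispersions, TMM factors, and the mouse and the tissue as terms. Within-treatment and within-genotype effects and their interactions came from the same kind of model with 1 tissue effect per group. P-values were adjusted by Benjamini-Hochberg over all elements tested, with a threshold of 0.1. DESeq2 1.42.0 was an alternative. Subfamily counts are sums over copies. Class shares, L1 totals and detection were tested by two-sided permutation of signs within mice (exact under 10 mice, otherwise 100000 draws, with 1e-05 as the smallest p they can give) in Python 3.11.15 with scipy 1.17.1. Detection at equal depth is the expected number of elements with a count. The elements named are the 8 with the smallest p and the 5 with the largest fold in each direction, the 8 most abundant and up to 10 listed by the study, and the subfamilies are those of L1Md and the 5 with the smallest p in each direction. Others are said to be chosen after their values were seen. The comparison, the classes and the lists were chosen with earlier results of these data known. The test was also run on simulated counts drawn from its own fitted model, with a change set in 200 of 4540 elements. It recovered 99% of the 4-fold and 47% of the 2-fold changes, and 5 of its 151 calls were wrong. Counts that depart from the model were not simulated.

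L1 totals between 186434 and 763030 counts per library set the precision. The SEs come from the fitted model and include spread between libraries, and the SDs are spread between mice. The floor of 3 counts covers counting error only. Whether libraries of 1 group came from separate animals or from pools is not settled by the sources used here, and p-values measure the spread between these libraries. Same-mouse libraries deviated together from their group means, with correlations between 0.068 and 0.52 (median 0.13, over the elements tested), and 16 of 21 cortex libraries correlated best with the hippocampus library of their own mouse. No 2 libraries held identical counts. The alternatives were fits without the pairing, with other scalings, thresholds, tools and depths, without single copies, and without single mice. The fits without mice 2, 8, 14 and 27 and without mouse 27 were chosen after seeing the data.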

Additional observations from a re-analysis of the deposited data

Results flagged for a closer look

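In 26 of 144 groups of 8 TS-nt libraries, 1 library lay far from the others by Dixon's criterion, which flags about 1 in 20 groups by chance. Mouse 27 was that library in 18 of them. Its cortex library had 763030 L1 counts (group median 295536), 71468 elements at equal depth (median 39484) and 5.99% of counts on the 10 most abundant elements (median 13.1%). Its class shares in cortex were 3.40% for L1Md_T, 6.64% for L1_Mur with L1VL and L1_Rod, 9.94% for L1MA and L1MB and 7.91% for L1M1 to L1M8, all the highest of the group, and 4.77% for Lx7 and 10.1% for L1ME, the lowest. In CPM it had 30285 of L1Md_T, 21793 of Lx, 10483 of L1_Mur2, 4513 of L1_Mur1, 315 of L1MC4a_dup1140 and 14444 of L1Md_T_dup9904. Its hippocampus library stood apart as well, with 54612 elements at equal depth, 4.93% of counts on L1_Mur with L1VL and L1_Rod and 3186 CPM of L1_Mur1.

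The other 8 were spread over 6 mice. In cortex, mouse 34 had 2244 CPM of Lx10_dup8120, mouse 40 17.7 CPM of L1M4_dup5561, mouse 25 17.7 CPM of L1MA4_dup3516, mouse 23 136250 CPM of L1MEd_dup2089 and mouse 31 0.158% of L1 counts on L1Md_Gf. In hippocampus, mouse 26 had 13.5 CPM of L1MB7_dup2198, mouse 23 15.2 CPM of Lx9_dup4345 and mouse 40 7.68% of L1 counts on L1M1 to L1M8. For L1M4_dup5561, L1MA4_dup3516, L1MB7_dup2198 and Lx9_dup4345 the group median was 0.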

How the results depend on the processing

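Counts of called elements stayed within 1.5 times the reported count under most alternatives. A test against a 1.5-fold change called 316 elements in place of 963. DESeq2's Wald test called 617 in TS-nt and 962 in TS-t mice, and 3 for the interaction with genotype. Without the pairing by mouse (no replicate block), 773 elements were called in all TS mice, 206 in TS-nt and 412 in TS-t mice, 0 and 2 for the interactions with treatment and genotype, 73 subfamilies and 9 of 17 class shares (8 classes and the left-over subfamilies, in place of 13 with the pairing, as L1Md_Gf, HAL1, L1ME and L1M1 to L1M8 were lost), and the differences in L1 total and detection had permutation p = 0.00352 and 0.0108. Leaving out single mice gave 876 to 1012 elements and 75 to 79 subfamilies, and TS-nt without mouse 27 gave 255. Without the called elements, 34 subfamilies were called. Of 31 named called elements, 24 were called under every alternative and 0 changed direction.

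Values that changed sign were near 0, apart from the subfamilies left over by the classes (0.15 without the most abundant copies). L1MC4_dup2661 was at 0.053 (log2) with DESeq2 size factors, 0.052 with DESeq2's test, 0.0035 with libraries thinned to equal totals, 0.033 without mouse 2 (without single mice, -0.084 to 0.033), 0.055 in mice with labels beginning with 20 and 0.045 without mice 2, 8, 14 and 27. With library totals, Lx7_dup29483 and Lx_dup18222 were at -0.050 and -0.042. Without the called elements, L1Md_Gf, L1Md_F3, L1MA6, L1MC4a and L1MB1 were at -0.0048, -0.039, 0.021, 0.0058 and 0.074. The subfamily L1Md_F3 was at -0.057 (adjusted p = 0.0335) in mice with labels beginning with 20, -0.023 without mice 2, 8, 14 and 27 and -0.0059 without mouse 14 (without single mice, -0.0059 to 0.031). Class shares without the most abundant copies were -0.012 for Lx5 and Lx6, -0.0062 for Lx8 to Lx10 and 0.0089 for HAL1, and Lx5 and Lx6 were at -0.0055 without mouse 2. The cause of these changes was not tested. Fits with a minimum of 10 counts in total, or with no filter, were not run for elements. Depth limits single copies: those with the largest folds had few counts in one tissue.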
